A study of Homo sapiens with 39 samples.

Results

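Nuclear receptor corepressors and coactivators are the proteins that a retinoic acid receptor holds when it is without ligand, and those that it gathers once an agonist has bound. The genes described are 9 chosen by name, namely NCOR1, TBL1X, TBL1XR1, GPS2, HDAC3, NRIP1, NCOA1, NCOA2 and NCOA3. A gene was represented by the probe sets whose platform annotation names it alone, with the brightest over all arrays as the main one. By this rule 7 of the 9 genes had a probe set, 24 probe sets in all, out of 18132 genes and 44988 probe sets tested. NCOR1 and NCOA3 were not analysed here.

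Transcript levels came from Affymetrix PrimeView arrays, which carry short probes for each gene. The cells were 7 established human lines derived from acute myeloid leukemia, MV-4-11, OCI-AML3, Sig-M5, NOMO-1, KG-1a, OCI-M1 and Kasumi-1. Each line was exposed for 24 h to tamibarotene (SY-1425), a synthetic agonist of retinoic acid receptor alpha (RARA), or to the solvent DMSO, called vehicle here. The labels give the drug as added at 100 nM and as 50 nM in its final concentration. Every line had 3 tamibarotene arrays, and MV-4-11, OCI-AML3, NOMO-1 and OCI-M1 had 3 vehicle arrays while Sig-M5, KG-1a and Kasumi-1 had 2, which makes 39 arrays. Nothing says that the replicates came from separate cultures, so p-values measure the spread between these samples only. Levels are log2 normalized intensities, and a change is the mean of tamibarotene minus the mean of vehicle on that scale, with its standard error (SE) from limma. A gene was called at a Benjamini-Hochberg adjusted p from limma under 0.05, adjusted over all 18132 genes. Cultures were measured in bulk, so fewer cells that use a gene and less RNA of it per cell cannot be told apart. A level says nothing about which of these genes is more abundant, since probe sets of different genes cannot be set against each other.

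Without ligand, RARA and its partner RXRA sit on DNA with the corepressor NCoR, a large scaffold encoded by NCOR1. The scaffold carries a histone deacetylase, HDAC3, a small subunit, GPS2, and the WD-repeat proteins TBL1X and TBL1XR1, which are close relatives and are also known to help clear the corepressor from the receptor when a ligand binds. An agonist changes the receptor's shape so that coactivators of the steroid receptor coactivator family (NCOA1, NCOA2 and NCOA3) bind and bring in histone acetyltransferases. NRIP1, also called RIP140, binds agonist-occupied receptors as well but represses them, and is known as a retinoic acid-induced gene in other cell types.

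Markers were read once for all lines. The vehicle means of 7 blood genes ran from 2.70 (KIT, in Sig-M5) to 13.87 (MPO, the myeloperoxidase of myeloid precursors, in Sig-M5). MPO was at 4.03 in OCI-M1, PTPRC was at 5.11 in Kasumi-1, and SPI1 was at most 6.89. KLF1, an erythroid factor, reached 11.32 in OCI-M1, while the erythroid markers HBB and EPOR were at most 6.55 and 6.87. Vehicle means of 4 lymphoid markers stayed between 3.30 and 6.10. EPCAM, an epithelial antigen, was at 9.22 in Kasumi-1, and PECAM1, an endothelial and leukocyte antigen, at 10.49 in NOMO-1, whereas the other epithelial and stromal markers (CDH1, KRT19, COL1A1, COL1A2 and COL3A1) were at most 5.50 and VWF, an endothelial gene, lay between 5.89 and 6.50. RNA integrity was read as the 3' minus the 5' value of the beta-actin control probe sets, which is larger in more degraded RNA. It was 0.31 to 0.34 on the tamibarotene arrays of Sig-M5 against 0.81 and 1.89 on its vehicle arrays, and 0.20 to 0.22 on those of Kasumi-1 against 1.18 and 0.30 on its vehicle arrays. All other arrays lay between -0.02 and 0.56.

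Of the 7 measured genes, 2 fell and 1 rose in the average of the lines. TBL1X fell by 0.83 on the log2 scale and HDAC3 by 0.19, while NRIP1 rose by 0.79. GPS2, TBL1XR1, NCOA1 and NCOA2 did not pass the test. In the average, 19.1% of all genes tested were called, 12.4% lower and 6.71% higher. TBL1X alone was called in MV-4-11, where 7.72% of all genes were called and 3.4% were lower. It was also the member called in OCI-AML3 (11.9% of all genes, 6.36% lower) and in KG-1a (3.09%, 1.88% lower). In Sig-M5, TBL1X and HDAC3 fell and NRIP1 rose, where 26.9% of all genes were called, 18.4% lower and 8.5% higher. By limma, 0 members were called in NOMO-1 (3.48% of all genes), OCI-M1 (1.09%) and Kasumi-1 (2.84%). In these lines 0, 1 and 1 members had an unadjusted limma p under 0.05. The share of all genes at that unadjusted threshold is not given here. The median change of the 7 genes in the average was 0.03, beside -0.02 over all genes. CD38 and DHRS3, known retinoic acid targets, rose by 3.53 ± 0.05 and 3.92 ± 0.07 (SE) in the average.

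**Figure D1:**
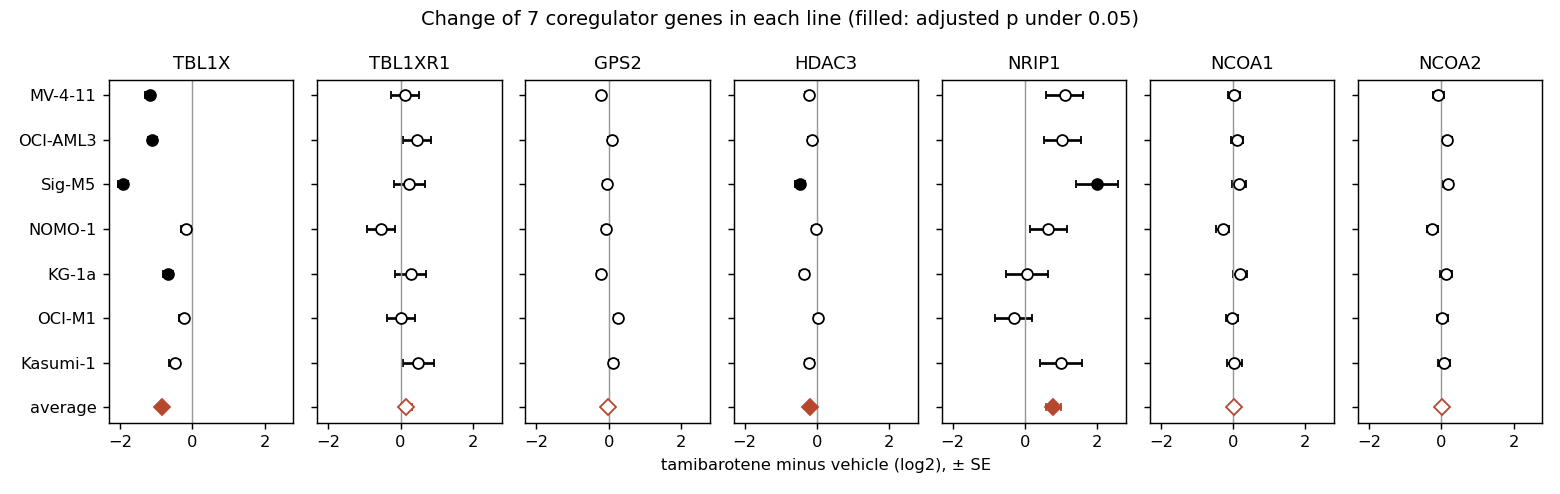
Change of each measured coregulator gene under tamibarotene in the 7 lines and in their average (x axis, tamibarotene minus vehicle in log2 units; bars, SE of the limma fit; filled symbols, adjusted p under 0.05). TBL1X lies left of 0 in all 7 lines, from -1.93 in Sig-M5 to -0.18 in NOMO-1, while NRIP1 has the widest error bars, with SE of 0.51 or 0.57 in a line.

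TBL1X, a subunit of the NCoR complex and an exchange factor for it, was lower under tamibarotene in every line. In MV-4-11 it was at 7.98, 7.96 and 7.96 on the tamibarotene arrays, against 9.21, 9.17 and 9.07 on the vehicle arrays. In OCI-AML3 it was at 7.10, 7.07 and 7.03 with tamibarotene, against 8.13, 8.31 and 8.07 with vehicle. In Sig-M5 it was at 5.28, 4.84 and 5.15 with tamibarotene, against 6.82 and 7.20 with vehicle. The groups did not overlap in these 3 lines, and the tamibarotene arrays of MV-4-11 lay within 0.02 of each other, with an SD of 0.01 (n = 3).

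The other lines had smaller differences. KG-1a, the line with the lowest vehicle TBL1X, had 5.78, 5.61 and 5.55 with tamibarotene, against 6.35 and 6.29 with vehicle, with no overlap. Kasumi-1 had 8.56, 8.10 and 8.39 with tamibarotene, against 8.98 and 8.70 with vehicle, again with no overlap. NOMO-1 had 9.18, 8.89 and 9.22 with tamibarotene, against 9.19, 9.20 and 9.45 with vehicle. OCI-M1 had 9.36, 9.70 and 9.59 with tamibarotene, against 9.58, 9.94 and 9.86 with vehicle. In NOMO-1 and OCI-M1 the groups overlapped.

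**Figure D2:**
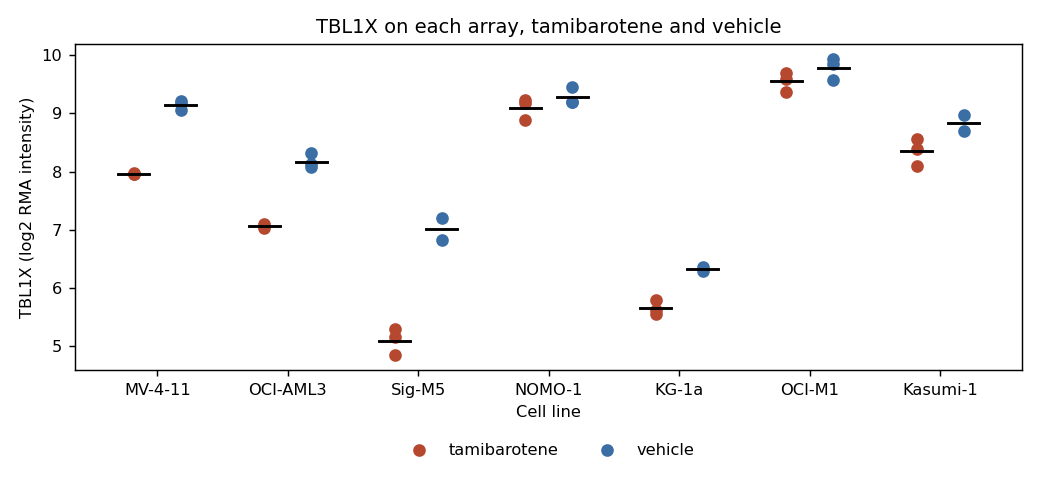
TBL1X on each of the 39 arrays (y axis, log2 normalized intensity; x axis, cell line; left points, tamibarotene; right points, vehicle; bars, group means). The tamibarotene points lie below all vehicle points in 5 lines, and overlap them in NOMO-1 and OCI-M1.

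The change of TBL1X was -1.19 ± 0.13 in MV-4-11 (SE, n = 3 and 3, limma adjusted p = 3.52e-08), a 2.27-fold lower level. It was -1.11 ± 0.13 in OCI-AML3 (n = 3 and 3, limma adjusted p = 1.29e-07), and -1.93 ± 0.14 in Sig-M5 (n = 3 and 2, limma adjusted p = 1.46e-11). In KG-1a it was -0.68 ± 0.14 (n = 3 and 2, limma adjusted p = 0.00414). Kasumi-1 at -0.49 ± 0.14 (limma adjusted p = 0.0604), NOMO-1 at -0.18 ± 0.13 (0.584) and OCI-M1 at -0.24 ± 0.13 (0.835) did not pass. The average was -0.83 ± 0.05 (limma adjusted p = 1.03e-13), and 9 of the 18132 genes had a lower average change. The KG-1a call was lost without vehicle replicate 1 (-0.65) or without vehicle replicate 2 (-0.71). Each of these fits leaves 1 vehicle array that is assumed to vary like the other groups. The KG-1a call was also lost by the mean of all probe sets (-0.35, limma adjusted p = 0.371). Kasumi-1 was called without tamibarotene replicate 1 (-0.59, limma adjusted p = 0.0206). It was not called without tamibarotene replicate 2 (-0.36, limma adjusted p = 0.318) or 3 (-0.51, 0.0826), or with the actin covariate (-0.30, 0.377). Kasumi-1 was at -0.35 without vehicle replicate 2. It was at -0.63 without vehicle replicate 3, which leaves 1 vehicle array, that with an actin difference of 1.18. The call of the average held under all 49 alternatives run, from -0.86 to -0.49, the smallest being that of the mean of all TBL1X probe sets.

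The change differed between the lines by the main probe set. The moderated F test of a difference between the 7 responses gave an adjusted p of 1.56e-07 in limma, and 27.4% of all genes passed that test. The change in Sig-M5 minus the mean of the other 6 lines was -1.28 ± 0.16 (limma adjusted p = 3.96e-07, where 22.9% of genes were called). The same difference was 0.76 ± 0.14 for NOMO-1 (limma adjusted p = 0.00133, 2.61% of genes called) and 0.69 ± 0.14 for OCI-M1 (limma adjusted p = 0.0028, 3.5% of genes called). The other lines did not pass this test, namely MV-4-11 (-0.42, with 4.79% of genes called), OCI-AML3 (-0.32, 7.83%), KG-1a (0.18, 4.9%) and Kasumi-1 (0.40, 5.36%). Among the 7 TBL1X probe sets, the F test was passed by the main one alone. With the mean of all 7 TBL1X probe sets the F test gave an adjusted p of 0.387 in limma, and the changes were -0.57 in Sig-M5, -0.77 in MV-4-11 and -0.68 in OCI-AML3.

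All 7 probe sets of TBL1X were lower under tamibarotene in 6 of the 7 lines, and 6 of 7 were lower in Sig-M5. Their average changes ran from -0.83 to -0.16, and 6 of them were called lower when all 44988 probe sets were tested. In MV-4-11 they ran from -1.19 to -0.49, with 4 called, and in OCI-AML3 from -1.11 to -0.18, with 4 called. Only 1 of the 7 probe sets was called in Sig-M5 and 1 in KG-1a, the main one in both, and none in Kasumi-1. In NOMO-1, where the main probe set was at -0.18, they reached -0.72, and in OCI-M1 they reached -0.58, with none called in either line. In Sig-M5 the 6 other probe sets lay between -0.76 and 0.08, apart from the main one at -1.93, in the line whose vehicle arrays had the actin differences of 0.81 and 1.89. With the actin difference as a covariate the main probe set was at -1.57 in Sig-M5 (limma adjusted p = 9.7e-07), and the part of RNA integrity in the gap between probe sets was not tested.

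**Figure D3:**
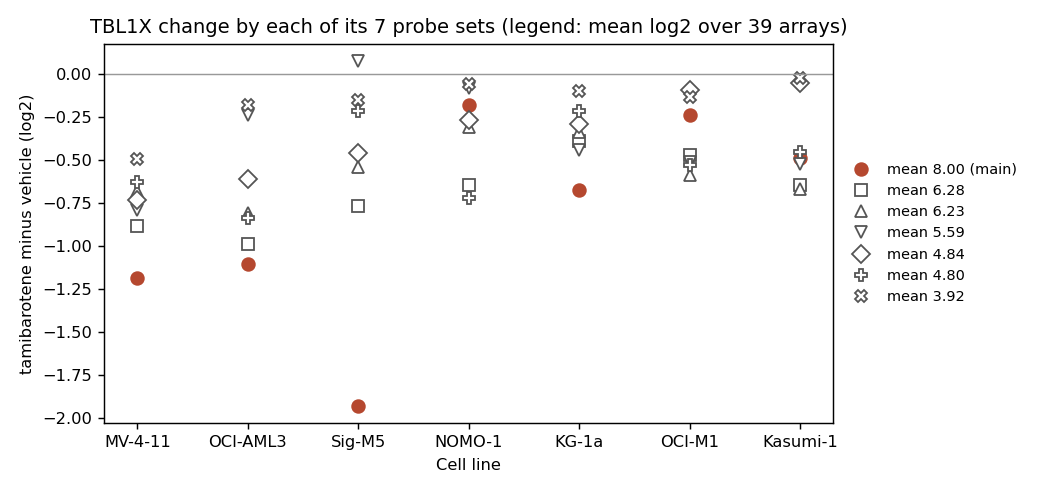
Change of TBL1X by each of its 7 probe sets (y axis, tamibarotene minus vehicle in log2 units; x axis, cell line; filled, the main probe set; open, the other 6, identified by their mean level). All points lie below 0 except 1 in Sig-M5 at 0.08, and the main probe set stands apart from the others in Sig-M5.

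The promoter windows of the members with the largest average change in each direction are shown because a retinoic acid receptor acts at DNA. Retinoic acid receptors are known to bind direct repeats of a hexamer spaced by 1, 2 or 5 bases. In the 250 bases before each RefSeq start (GRCh38.p14), both strands were searched for 4 forms of the hexamer. They were AGGTCA, the form GGGTCA and the form AGTTCA, each with 1 base changed, and the form GGTTCA with both changes. In the windows below, the capitals mark the hexamer found.
TBL1X, plus strand, chrX:9463045-9463294: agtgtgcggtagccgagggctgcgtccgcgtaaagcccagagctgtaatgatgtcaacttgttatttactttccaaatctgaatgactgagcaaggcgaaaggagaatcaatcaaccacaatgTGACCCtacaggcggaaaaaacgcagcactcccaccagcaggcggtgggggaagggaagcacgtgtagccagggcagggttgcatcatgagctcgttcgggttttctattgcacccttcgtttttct
NRIP1, minus strand, chr21:15065937-15066186: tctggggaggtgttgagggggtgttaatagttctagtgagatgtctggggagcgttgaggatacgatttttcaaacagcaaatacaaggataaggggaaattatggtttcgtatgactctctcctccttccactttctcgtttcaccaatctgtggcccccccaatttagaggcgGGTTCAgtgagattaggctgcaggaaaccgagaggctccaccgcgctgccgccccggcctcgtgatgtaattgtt
The TBL1X window holds GGGTCA on the opposite strand, beginning 127 bases before the start, and the NRIP1 window holds GGTTCA beginning 75 bases before it. The other TBL1X window and the 2 other NRIP1 windows in the table held none of the 4 hexamers. Of 35116 promoter windows of the same length in the RefSeq table, 12.1% held GGGTCA and 7.16% held GGTTCA, and 33.8% held at least 1 of the 4 hexamers. Neither window, nor the other TBL1X window or the other NRIP1 windows in the table, held a direct repeat, which 0.0968% (spacing 1), 0.0313% (spacing 2) and 0.074% (spacing 5) of all windows did. A match is a description of these letters and not a site.

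TBL1XR1, the close relative of TBL1X, did not pass in any line or in the average. Its average change was 0.15 ± 0.15 (95% interval -0.16 to 0.47, limma adjusted p = 0.581), and its changes ran from -0.54 in NOMO-1 to 0.49 in Kasumi-1. In Kasumi-1 it was at 7.37, 9.39 and 9.32 with tamibarotene, against 8.53 and 7.88 with vehicle, so that the first tamibarotene array lay below both vehicle arrays and the others above them. Its change of 0.49 there was 1.15 without tamibarotene replicate 1 (limma adjusted p = 0.0623), and 0.14, 0.18 and 0.16 without tamibarotene replicate 2, tamibarotene replicate 3 or vehicle replicate 3. The groups did not overlap in Sig-M5 and KG-1a, where the tamibarotene arrays were higher by 0.24 and 0.28 on average. In OCI-AML3 it was at 8.20, 8.16 and 8.62 with tamibarotene, against 8.07, 6.95 and 8.58 with vehicle, where the second vehicle array was more than 1 unit below the rest. The within-array difference TBL1X minus TBL1XR1 was lower with tamibarotene by 0.98 on average (two-sided permutation test within lines, 100000 resamples, p = 0.00012), and it was lower in 6 of 7 lines. The exception was NOMO-1 at 0.36. By the same permutation test the average was -0.59 with the mean of all probe sets of each gene (p = 0.00092). It was -0.79 without Sig-M5 (permutation p = 0.00216) and -0.75 without Kasumi-1 and Sig-M5 (0.00163). Of the other probe sets of TBL1XR1, 1 was called in Sig-M5, where it was at 1.30 (limma adjusted p = 0.000227 over all probe sets), against 0.24 by the main one. By that probe set the responses differed between lines (F test, limma adjusted p = 0.00334). Its vehicle mean in Sig-M5 was 5.48, against 10.07 by the main one. The part of RNA integrity in these gaps was not tested.

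HDAC3, the deacetylase of the complex, was lower in 6 of 7 lines by small amounts. The average change was -0.19 ± 0.04 (limma adjusted p = 0.00174). In Sig-M5 it was at 8.12, 8.19 and 7.90 with tamibarotene, against 8.46 and 8.61 with vehicle, a change of -0.47 ± 0.13 (n = 3 and 2, limma adjusted p = 0.00562). KG-1a had 8.04, 7.90 and 8.08 with tamibarotene, against 8.31 and 8.41 with vehicle, but its change of -0.35 ± 0.13 did not pass (limma adjusted p = 0.16). The groups did not overlap in these lines or in OCI-AML3. The call of the average was lost with the actin covariate (-0.14, limma adjusted p = 0.0814) and with both Sig-M5 and Kasumi-1 left out (-0.14, 0.059), and the Sig-M5 call was lost with the covariate (-0.25, 0.467) and without vehicle replicate 2 (-0.39, 0.105), which leaves 1 vehicle array.

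GPS2, the small subunit of the complex, was at -0.01 ± 0.04 in the average (95% interval -0.09 to 0.07, limma adjusted p = 0.916). Its changes ran from -0.21 in KG-1a to 0.24 in OCI-M1, and none passed. In OCI-M1 it was at 9.50, 9.51 and 9.42 with tamibarotene, against 9.38, 9.10 and 9.21 with vehicle. In KG-1a it was at 7.71, 7.64 and 7.72 with tamibarotene, against 7.87 and 7.93 with vehicle. The groups did not overlap in these lines, in opposite directions, and the differences did not pass the test (limma adjusted p = 0.536 in OCI-M1 and 0.492 in KG-1a). Nor did they overlap in Kasumi-1, where GPS2 was higher with tamibarotene by 0.13 (limma adjusted p = 0.594). A difference between lines was not called (F test, limma adjusted p = 0.115). It was called without vehicle replicate 1 or vehicle replicate 2 of Sig-M5, each of which leaves 1 vehicle array. With array weights, whose estimation stopped before its tolerance was reached, it was called as well (F test, limma adjusted p = 0.000605). So were the changes in MV-4-11 (-0.31, limma adjusted p = 0.00323), KG-1a (-0.22, 0.0448) and OCI-M1 (0.30, 0.0476) with these weights.

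NRIP1, the ligand-dependent corepressor, had higher tamibarotene means in 6 of 7 lines. In Sig-M5 it was at 8.75, 9.12 and 8.69 with tamibarotene, against 6.74 and 6.97 with vehicle. In MV-4-11 it was at 6.78, 7.78 and 6.27 with tamibarotene, against 5.01, 6.65 and 5.86 with vehicle. In OCI-AML3 it was at 6.12, 6.31 and 6.79 with tamibarotene, against 5.78, 4.11 and 6.24 with vehicle. Of these lines, Sig-M5 alone showed no overlap, and the replicates of MV-4-11 and OCI-AML3 spread over more than 1 unit within their vehicle groups.

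The other lines were less uniform. Kasumi-1 had 4.07, 6.56 and 6.63 with tamibarotene, against 5.13 and 4.38 with vehicle, where the first tamibarotene array was the lowest of the 5. NOMO-1 had 5.61, 4.89 and 5.33 with tamibarotene, against 5.08, 3.98 and 4.84 with vehicle. KG-1a had 7.22, 7.37 and 6.64 with tamibarotene, against 7.02 and 7.03 with vehicle. OCI-M1 had 4.44, 4.47 and 3.87 with tamibarotene, against 4.80, 4.30 and 4.59 with vehicle. OCI-M1 was the 1 line in which the tamibarotene mean was the lower.

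**Figure D4:**
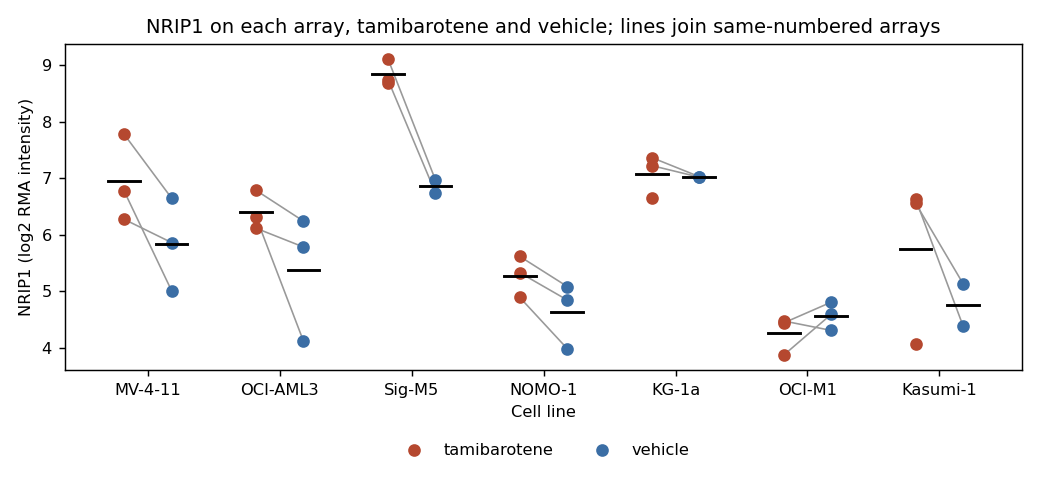
NRIP1 on each of the 39 arrays (y axis, log2 normalized intensity; x axis, cell line; left points, tamibarotene; right points, vehicle; bars, group means; grey lines, arrays of a line with the same replicate number). Of the 18 grey lines, 16 have the tamibarotene array above the vehicle array, and the exceptions are both in OCI-M1. The labels do not say that same-numbered arrays were paired.

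The change of NRIP1 was 1.99 ± 0.57 in Sig-M5 (n = 3 and 2, limma adjusted p = 0.00924), 3.98-fold. The changes of 1.10 ± 0.51 in MV-4-11 (limma adjusted p = 0.269), 1.03 ± 0.51 in OCI-AML3 (0.266) and 0.99 ± 0.57 in Kasumi-1 (0.367) did not pass. The change was 0.69 in MV-4-11 without tamibarotene replicate 2 or without vehicle replicate 1, and 0.39 in OCI-AML3 without vehicle replicate 2 (limma adjusted p = 0.832). The average was 0.79 ± 0.20 (95% interval 0.37 to 1.20, limma adjusted p = 0.00522), and 85 genes had a higher one. Without the first tamibarotene array of Kasumi-1, NRIP1 was at 1.84 there (limma adjusted p = 0.0285), and the F test between lines gave 0.0344. It was at 0.59, 0.55 and 0.62 there without tamibarotene replicate 2, tamibarotene replicate 3 or vehicle replicate 3 (limma adjusted p from 0.664 to 0.741). By the other probe set of NRIP1 the average was 0.79 (limma adjusted p = 0.000632 over all probe sets), with Sig-M5 at 1.95 (0.00167), MV-4-11 at 1.40 (0.0344), OCI-AML3 at 1.24 (0.0557) and OCI-M1 at -0.58 (0.947). A difference between lines was not called by the main probe set (F test, limma adjusted p = 0.239) and was called by the other (0.0204). The call of the average was lost without Sig-M5 (0.59, limma adjusted p = 0.109) and with both Sig-M5 and Kasumi-1 left out (0.50, 0.124), and the Sig-M5 call without vehicle replicate 1 (1.88, 0.0615), without vehicle replicate 2 (2.11, 0.054), which leave 1 vehicle array each, and with the actin covariate (2.41, 0.0706).

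NRIP1 and TBL1XR1 mostly deviated from their group means in the same direction on an array. The SD within groups was 0.68 for NRIP1 and 0.51 for TBL1XR1, against 0.12 to 0.23 for the other 5 genes and a median of 0.16 over all genes. Over the 39 arrays the deviations of the pair from their group means had a Pearson r of 0.93 and a Spearman rho of 0.84, and r was 0.89 without the 2 arrays farthest in TBL1XR1. The values of a point come from the same array and the same normalization, and the correlation is given as a description. Another 623 of the 18132 genes had deviations correlated with those of NRIP1 at an r above 0.8, and 122 of them at least as closely as TBL1XR1. In no other pair among the 7 genes did r exceed 0.53.

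**Figure D5:**
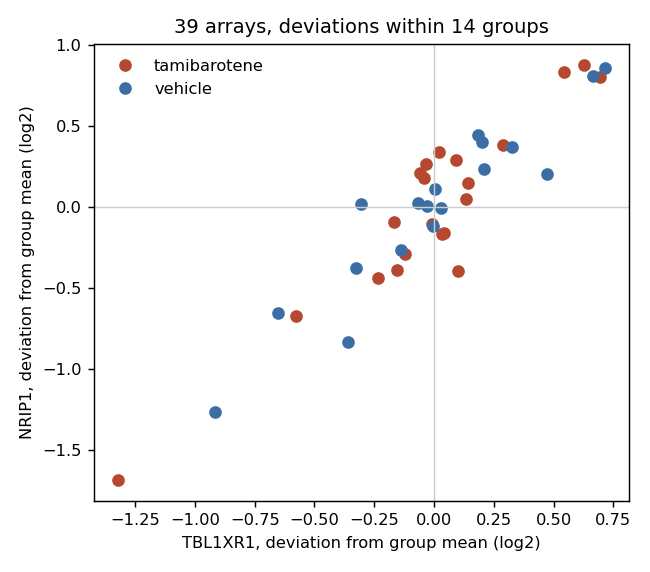
Deviation of NRIP1 (y axis) and TBL1XR1 (x axis) from their group means on the 39 arrays, in log2 units, tamibarotene and vehicle arrays in separate colours. The points run along a rising diagonal (r = 0.93 over both arms together), with the first tamibarotene array of Kasumi-1 at the lower left.

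The coactivators NCOA1 and NCOA2, which contact agonist-bound receptors directly, did not pass in any line by their main probe sets. NCOA1 was at 0.03 ± 0.07 in the average (95% interval -0.12 to 0.17, limma adjusted p = 0.855), from -0.28 in NOMO-1 to 0.19 in KG-1a. In NOMO-1 it was at 5.86, 5.78 and 6.02 with tamibarotene, against 6.35, 5.70 and 6.45 with vehicle, with overlap. NCOA2 was at 0.03 ± 0.06 in the average (95% interval -0.09 to 0.15, limma adjusted p = 0.801), from -0.25 in NOMO-1 to 0.17 in Sig-M5. All 6 NCOA1 probe sets and all 3 NCOA2 probe sets were lower in NOMO-1, and none of them passed there. All 6 NCOA1 probe sets were higher in OCI-AML3 and KG-1a, with 0 called by limma, and all 3 NCOA2 probe sets were higher in Sig-M5, KG-1a and Kasumi-1, with 1 called, in Sig-M5. A difference between lines was called by 1 of the 6 NCOA1 probe sets (F test, limma adjusted p = 0.031). In Sig-M5 the dimmest NCOA2 probe set, with a mean of 3.20, was at 1.39 (limma adjusted p = 1.91e-08 over all probe sets), while the others were at 0.34 and 0.17. A difference between lines was called by that dimmest probe set as well (F test, limma adjusted p = 2.98e-06). By the mean of its 3 probe sets NCOA2 was at 0.63 in Sig-M5 (limma adjusted p = 2.58e-06). Actin differences in Sig-M5 were 0.31 to 0.34 with tamibarotene, against 0.81 and 1.89 with vehicle. The part of RNA integrity in these changes was not tested.

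Vehicle levels tell how the lines differ without the drug, after 24 h in DMSO. The largest actin differences were on the vehicle arrays of Sig-M5 (0.81 and 1.89) and on vehicle replicate 2 of Kasumi-1 (1.18). The part of RNA integrity in the order of the lines by vehicle level was not tested. All 7 genes differed between the lines by the moderated F test in limma, as did 78.6% of all genes. TBL1X had the widest range, 3.47 on the log2 scale, an 11.1-fold difference between OCI-M1 and KG-1a. Its vehicle means were 9.79 in OCI-M1, 9.28 in NOMO-1, 9.15 in MV-4-11, 8.84 in Kasumi-1, 8.17 in OCI-AML3, 7.01 in Sig-M5 and 6.32 in KG-1a. In this order MV-4-11 did not differ from either neighbour (limma adjusted p = 0.446 against NOMO-1 and 0.0953 against Kasumi-1), and all other neighbours differed. OCI-M1 had the highest vehicle mean by all 7 TBL1X probe sets, and KG-1a the lowest by 5 of them and Sig-M5 by the other 2.

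TBL1XR1 had its highest vehicle mean in Sig-M5 at 10.07, above NOMO-1 at 8.27 (difference 1.80 ± 0.43, limma adjusted p = 0.000768), and its lowest in OCI-M1 at 6.89. No other neighbours in the order passed the test of a difference. Its probe sets disagreed about Sig-M5, which was highest by 2 of 4 and lowest by 1 at 5.48. OCI-M1 was lowest in TBL1XR1 by the other 3 probe sets and highest in TBL1X by all 7.

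GPS2 was at 9.37 in MV-4-11, 9.23 in OCI-M1, 9.19 in NOMO-1 and 9.12 in OCI-AML3, and neighbours among these 4 lines did not pass the test of a difference. It was lower in Sig-M5 (8.25), KG-1a (7.90) and Kasumi-1 (7.16), each of which differed from the line above it, Sig-M5 by 0.87 from OCI-AML3 (limma adjusted p = 1.79e-07). By the main probe sets HDAC3 had the narrowest range, 0.94 between MV-4-11 at 9.30 and KG-1a at 8.36, and among neighbours Sig-M5 at 8.54 alone was below the line above it, NOMO-1 at 8.86 (limma adjusted p = 0.0323). KG-1a was thus the lowest line for both TBL1X and HDAC3 by their main probe sets.

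NRIP1 was highest in KG-1a (7.02) and Sig-M5 (6.86), followed by MV-4-11 (5.84), OCI-AML3 (5.38), Kasumi-1 (4.76), NOMO-1 (4.63) and OCI-M1 (4.57). No neighbours in that order differed, although 9 of the 21 pairs of lines did. By its other probe set NRIP1 was highest in Sig-M5 and lowest in Kasumi-1. By its main probe set NCOA1 was highest in Sig-M5 at 6.49 and lowest in Kasumi-1 at 5.24. Its only neighbours to differ were OCI-AML3 at 5.73 and MV-4-11 at 5.25 (limma adjusted p = 0.0379). Of its 6 probe sets, 3 put OCI-M1 highest, 2 NOMO-1 and 1 Sig-M5, and 5 put Kasumi-1 lowest. By its main probe set NCOA2 was at 5.08 in Sig-M5, above NOMO-1 at 4.41 (limma adjusted p = 0.000786), and at 4.03 to 4.21 in the other 5 lines. By its other probe sets the NCOA2 vehicle ranges were 0.19, with Sig-M5 highest, and 0.31, with NOMO-1 highest.

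Among 17 measured genes of other corepressor complexes, 2 rose and 5 fell in the average, with a median change of -0.06 beside -0.02 over all genes. Of all genes, 6.71% rose and 12.4% fell in the average. SAP30, a subunit of the SIN3 deacetylase complex, fell by 0.31 (limma adjusted p = 2.6e-07), and KDM1A, a histone demethylase, by 0.17 (0.000148). CORO2A, a coronin found with NCoR, rose by 0.45 (limma adjusted p = 0.000807) and the deacetylase HDAC1 by 0.12 (0.00136). SAP30 fell by 0.72 in MV-4-11 and by 0.81 in Sig-M5, where CBFA2T3, a corepressor of the ETO family, fell by 1.16. CORO2A rose in OCI-AML3 by 1.06 (limma adjusted p = 0.00226). HDAC4, another deacetylase, fell in MV-4-11 by 0.55 and in OCI-AML3 by 0.48 and rose in OCI-M1 by 0.51 (limma adjusted p = 0.0142).

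Among 20 measured genes of other coactivators, 4 fell and none rose in the average, where 12.4% of all genes fell and 6.71% rose, with a median change of -0.09. They were the arginine methyltransferases PRMT1 (-0.16, limma adjusted p = 6.96e-05) and CARM1 (-0.27, 7.87e-05), the Mediator subunit MED12 (-0.31, 0.0124) and ASXL1 (-0.14, 0.0363). At an unadjusted limma p under 0.05, 0 were higher and 6 lower. CARM1 fell by 1.19 in Sig-M5, and PRMT1 fell by 0.24 in MV-4-11, by 0.32 in OCI-AML3 and by 0.53 in Sig-M5. CITED2, a partner of the acetyltransferases, fell by 0.50 in MV-4-11 (limma adjusted p = 0.000576) and rose by 0.65 in Sig-M5 (3.65e-05). NCOA7 rose by 1.25 in KG-1a (limma adjusted p = 0.0063) and fell by 1.06 in Sig-M5 (0.00457). By limma 0 genes of either list were called in NOMO-1 or Kasumi-1, where 3.48% and 2.84% of all genes were. At an unadjusted limma p under 0.05, 3 corepressor genes were higher and 3 coactivator genes lower in NOMO-1. In Kasumi-1, 1 corepressor gene was higher while 5 corepressor and 7 coactivator genes were lower. The shares of all genes at that unadjusted threshold, in the average or in a line, are not given here. Over all genes, 502 were called higher and 129 lower in NOMO-1, and 87 higher and 428 lower in Kasumi-1.

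RARA, the receptor that the drug binds, was at -0.10 ± 0.06 in the average, and its call in Sig-M5 (-0.67) was the only one in a line. RXRA, its partner, changed by -0.93 in MV-4-11, -0.85 in OCI-AML3 and -2.35 in Sig-M5, each called, beside the TBL1X changes of -1.19, -1.11 and -1.93 in those lines. In KG-1a, where TBL1X was called, RXRA was at -0.15 (limma adjusted p = 0.822).

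The genes whose changes over the 7 lines ran most like those of TBL1X were PSTPIP1 (Pearson r = 0.97), METTL9 (0.97) and GNA15 (0.96), out of 3132 genes with changes that spanned at least 1. For NRIP1 they were MPC2 (0.99), MNS1 (0.94) and DCUN1D1 (0.94). By vehicle level over the 7 lines, the closest to TBL1X among 9330 genes were RNLS (0.96), CD63 (0.96) and ATP6V1E1 (0.96), and the closest to NRIP1 were ACSF3 (0.97), MAPKBP1 (0.95) and COPS9 (0.95). These are the highest of many correlations over 7 points that share arrays, and are given as a description.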

How the data were processed

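The authors deposited log2 intensities per probe set, and the submitters' processing notes name RMA and affy as what produced them. Versions and whether all arrays were normalized together are not given in the sources used here. The deposited log2 values ran from 1.68 to 14.43 on 49395 probe sets, with array medians from 5.01 to 5.17. The highest correlation between arrays of a group was 0.997. Of the probe sets, 44988 named 1 symbol, 1832 several and 2473 none, and 102 were controls.

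All 39 arrays entered 1 fit of limma 3.58.1, in which each of the 14 combinations of line and arm had its own mean, in R 4.3.3 (25 residual degrees of freedom, no trend, not robust). The contrasts took tamibarotene minus vehicle per line, the unweighted average of these, the F test between the lines' responses, each line against the other 6, and vehicle means over the 21 pairs of lines. The SE of the average leaves out the spread between lines. The script was tested on simulated data. Figures used Python 3.11.15 and matplotlib 3.10.9. Promoter sequences are RefSeq's, and all 9 genes but NCOA2 were searched. The number of arrays limits the precision.

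The members, lists and tests were chosen with earlier results of these data known. The text names all 9 genes, RARA, RXRA, CD38 and DHRS3, the called genes of the lists of other corepressors and coactivators (up to 4 in the average and 2 in a line, by adjusted p, to which the Sig-M5 calls of CITED2 and NCOA7 were added after their values were seen), and the 3 genes most like each of the 2 members with the largest average change. By a rule that every correlation be over 0.1, same-numbered arrays of both arms deviated together in OCI-M1 alone, at 0.118 to 0.371. Correlations reached higher values in MV-4-11 (0.0995 to 0.67), OCI-AML3 (-0.04 to 0.461) and NOMO-1 (0.01 to 0.572), where the lowest missed that rule. These are hints from the arrays and not from the labels. The replicate block changed no member's call in OCI-M1, and added calls in MV-4-11, OCI-AML3 and Kasumi-1, as given below. Alternatives were leaving out each array, quantile normalization, array weights, the replicate block, a line fitted alone, the mean of all probe sets, a filter on the dimmest 25% of genes, the actin covariate, eBayes with trend and robust, every probe set tested, and averages without Kasumi-1 and Sig-M5. The average without Sig-M5 was added after seeing the data.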

Additional observations from a re-analysis of the deposited data

Results flagged for a closer look

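The responses of TBL1X differed between the 7 lines by the F test (limma adjusted p = 1.56e-07). The response of Sig-M5 minus that of the other 6 lines on average was -1.28, that of NOMO-1 was 0.76 and that of OCI-M1 was 0.69. These values rest on 1 of 7 probe sets. With the mean of all 7 the F test gave an adjusted p of 0.387 in limma, and the change was -0.57 in Sig-M5, -0.77 in MV-4-11 and -0.68 in OCI-AML3. Among the 7 genes no other passed a test of a difference between lines by its main probe set. Groups of 2 or 3 arrays were not tested for single arrays that stand apart.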

How the results depend on the processing

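Counts of called members moved under these alternatives. With array weights, whose estimation stopped before its tolerance was reached, 4 members were called in MV-4-11 (against 1), 3 in KG-1a (against 1) and 1 in OCI-M1 (against 0), and 3 had responses that differed between lines (against 1). With the replicate block, 2 were called in MV-4-11 (against 1), 2 in OCI-AML3 (against 1) and 3 in Kasumi-1 (against 0), and 3 had responses that differed between lines. The block gave NRIP1 calls in MV-4-11 (1.10, limma adjusted p = 0.0186), OCI-AML3 (1.03, 0.0211) and Kasumi-1 (1.84, 0.00342). It gave TBL1XR1 calls in Kasumi-1 (1.15, limma adjusted p = 0.00636) and in the average (0.26, 0.0292), and TBL1X a call in Kasumi-1 (-0.59, 0.0217). The F tests of NRIP1 (limma adjusted p = 0.00556) and TBL1XR1 (0.0131) passed. Kasumi-1 had no vehicle replicate 1, so the block takes its tamibarotene replicate 1 out of the comparison. The 3 Kasumi-1 changes are thus the same as without that array, where TBL1XR1 was not called (1.15, limma adjusted p = 0.0623). Correlations of same-numbered arrays ran from 0.0995 to 0.67 in MV-4-11, from -0.04 to 0.461 in OCI-AML3, from 0.01 to 0.572 in NOMO-1 and from -0.173 to 0.117 in Kasumi-1, so that not every one was over 0.1 there. Every tamibarotene array correlated best with its own number in NOMO-1 and OCI-M1, and 2 of 3 did in MV-4-11 and in OCI-AML3, a hint from the data and not from the design. The mean of all probe sets left 0 in KG-1a (against 1), the actin covariate 1 in Sig-M5 (against 3) and the average without Kasumi-1 and Sig-M5 1 (against 3). Leaving out 1 array gave 0 to 2 in Kasumi-1, 0 to 1 in KG-1a, 1 to 3 in Sig-M5 and 1 to 2 members with differing responses. Why the calls moved was not tested. TBL1X minus TBL1XR1 kept its direction and its p under 0.05 in all 3 alternatives. Of 1057 alternative values of a member's change, 1029 kept their side of the threshold, 16 gained a call and 12 lost one, no called value changed sign, and 39 uncalled values did.

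Counts over all genes moved by over 1.5 times with array weights in MV-4-11 (3252 against 1399), OCI-AML3 (5639 against 2150), KG-1a (2587 against 560), OCI-M1 (414 against 197) and Kasumi-1 (14 against 515). The block gave 1002 in NOMO-1 (against 631) and 1934 in Kasumi-1, the mean of all probe sets 308 in Kasumi-1, and the actin covariate 1705 in Sig-M5 (against 4874), 28 in Kasumi-1 and 2306 in the average (against 3460). The average without Sig-M5 had 2221. Leaving out 1 array gave 15 (without vehicle replicate 2) to 1834 (without vehicle replicate 3) in Kasumi-1, with 1115 and 36 without tamibarotene replicates 1 and 2. It gave 260 and 283 in KG-1a without vehicle replicates 2 and 1, 2700 in Sig-M5 without vehicle replicate 2, and 399 (without vehicle replicate 3), 404 (without tamibarotene replicate 2) and 984 (without vehicle replicate 2) in NOMO-1. Fitted alone, MV-4-11 had 904, NOMO-1 202, OCI-M1 63 and Kasumi-1 0.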
